A study of Mus musculus with 12 samples.

Results

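The 5 genes described here, Lrrn3, Fam171b, Sncg, Homer2 and Trpm3, encode no part of the circadian clock. They were chosen because each had higher values in mouse hair follicle stem cells bright for a Per1 reporter than in dim ones, and in wild-type epidermis than in epidermis without the clock gene Bmal1. They are 5 of 19938 genes, read by 6 of 35512 probe sets, of these whole-transcript microarrays, counting the genes that have a probe set with a single gene symbol. The genes were chosen by their differences on these same arrays, in both comparisons of the series, so the changes of the 5 genes in them are given as a description and are not tested.

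The series holds 12 arrays of cells sorted from mouse dorsal skin, 3 in each of 4 groups. The bulge, the niche of hair follicle stem cells, was taken at 18 to 19 days of age, with about 20 mice pooled per sample. All of these mice carried Per1-Venus, in which the promoter of the clock gene Per1 drives a fluorescent protein, and cells bright for alpha6 integrin and positive for CD34 were parted into clock-positive (bright Venus) and clock-negative (dim Venus) cells. The labels of the clock-negative samples also name the Venus-high gate, so the groups follow the sample titles and the design text. Basal cells of the interfollicular epidermis (IFE) came from mice of 1 year, with 5 mice per sample, and were wild type (WT) or lacked Bmal1 in the epidermis (KO). The promoter that drove the deletion, and the time of day of collection, are not given in the sources used here.

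In the mammalian clock the proteins BMAL1 and CLOCK bind E-box sequences and switch on Per, Cry and Nr1d genes, whose products then hold BMAL1 and CLOCK or their genes down. Output passes on through D-box sequences, which DBP, TEF and HLF activate and NFIL3 represses, and through ROR sites, on which REV-ERB proteins (Nr1d1, Nr1d2) act as repressors. Lrrn3 encodes a transmembrane protein with leucine-rich repeats, known from neurons. Fam171b encodes a single-pass membrane protein. Sncg encodes gamma-synuclein, a small soluble protein of peripheral neurons. Homer2 encodes a scaffold that ties glutamate receptors, IP3 receptors and Shank proteins together at synapses and calcium stores. Trpm3 encodes a cation channel of sensory neurons that opens to heat and to pregnenolone sulfate, and one of its introns holds a microRNA gene, Mir204.

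Promoter sequences are shown as a description for the 3 of the 5 genes, Homer2, Sncg and Trpm3, that have entries in the RefSeq promoter table (build GRCm38.p6). The 250 bases before each annotated start were searched on both strands for the E-box CACGTG, the E-box variant CACGTT, the D-box TTATGTAA, the ROR core site AGGTCA and CCAAT. Another D-box form, TTACGTAA, was added after the Homer2 sequence had been read. The windows that held a match are printed 5′ to 3′ on the gene's strand, with the match in capitals. They lie at chr7:81706926-81707175 on the minus strand (Homer2), and at chr19:22138796-22139045 and chr19:22447958-22448207 on the plus strand (Trpm3, 2 annotated starts).
Homer2: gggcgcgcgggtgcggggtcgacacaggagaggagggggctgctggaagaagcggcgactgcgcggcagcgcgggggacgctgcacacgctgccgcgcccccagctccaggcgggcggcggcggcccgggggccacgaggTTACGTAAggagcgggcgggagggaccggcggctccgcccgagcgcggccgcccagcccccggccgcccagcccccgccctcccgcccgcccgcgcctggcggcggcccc
Trpm3, first start: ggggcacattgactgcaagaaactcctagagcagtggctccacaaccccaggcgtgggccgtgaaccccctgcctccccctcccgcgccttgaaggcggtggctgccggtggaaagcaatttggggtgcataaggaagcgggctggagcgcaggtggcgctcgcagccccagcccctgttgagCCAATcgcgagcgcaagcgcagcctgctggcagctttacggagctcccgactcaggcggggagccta
Trpm3, second start: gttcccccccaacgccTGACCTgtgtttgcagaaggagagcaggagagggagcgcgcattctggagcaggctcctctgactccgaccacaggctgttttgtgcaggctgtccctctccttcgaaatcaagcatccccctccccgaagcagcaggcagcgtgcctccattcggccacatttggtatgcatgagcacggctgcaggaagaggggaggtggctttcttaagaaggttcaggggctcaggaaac

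The Homer2 window carried TTACGTAA, which reads the same on both strands, with its first base 110 bases before the start. This word occurs in 37 of 32851 promoter windows (0.113%). The first Trpm3 window carried CCAAT, which 33.8% of all windows hold. The second carried TGACCT, the reverse of AGGTCA, which 4607 of the 32851 windows hold. None of the 5 windows searched, which include a second Homer2 start and that of Sncg, held CACGTG (6.02% of all windows), CACGTT (3.85%) or TTATGTAA (0.819%). The search covers only these letters in these windows. The share of G and C was 83.2% and 52.0% in the Homer2 windows, 61.6% in the Sncg window, and 66.4% and 59.2% in the Trpm3 windows, against a median of 52.4% over all windows.

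Values are log2 intensities as the authors deposited them, so 1 unit is a doubling. They appear to have been processed apart in the bulge and IFE sets, since the sets fill different probe sets, and levels are therefore compared only within a set. Array medians lay from 6.82 to 7.01 in the bulge set and from 7.75 to 7.80 in the IFE set, and the number of arrays limits the precision. Arntl, the gene symbol of Bmal1, had values of 9.27, 9.47 and 9.34 on the wild-type arrays and 9.85, 9.60 and 9.55 on the KO arrays. Its single probe set was 0.30 ± 0.12 (SE) higher in the KO (limma adjusted p = 0.530), and where it lies relative to the deleted part was not analysed here, so it checks no label. Nr1d1, which BMAL1 drives, fell by 3.98 ± 0.12 on the log2 scale in the KO (limma adjusted p = 1.08e-05). Per1 was higher by 0.51 ± 0.07 in clock-positive cells (limma adjusted p = 1.95e-04), whose sort used its reporter. The mean over 10 bulge stem cell markers was 10.58 on each clock-positive array and from 9.69 to 9.77 on the clock-negative ones. Of these markers 9 rose and 0 fell in clock-positive cells (median change 0.95), in the same direction as the 5 genes, and their part in the bulge result was not tested. The mean over 9 basal keratinocyte markers from 12.10 to 12.24 on the IFE arrays.

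**Figure D1:**
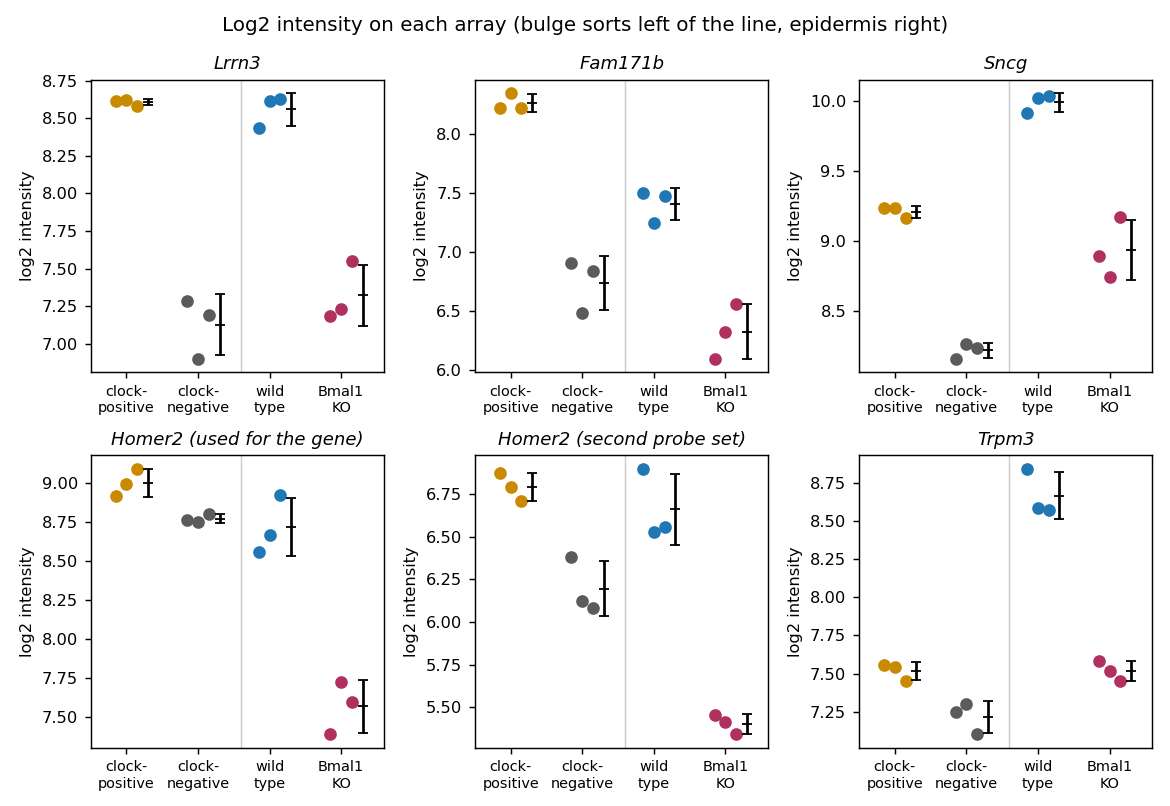
Log2 intensity (y axis) of the 5 genes on each array, by group (x axis). Homer2 is shown for both of its probe sets. Dots are single arrays and the bar beside each group is its mean ± SD (n = 3). In every panel the 3 clock-positive dots lie above the 3 clock-negative ones, and the 3 wild-type dots lie above the 3 KO ones. Over all genes tested this held for 50.1% in the bulge and 8.56% in the IFE. The 5 genes were chosen by these differences.

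Lrrn3 had values of 8.61, 8.62 and 8.58 in clock-positive cells and 7.29, 6.90 and 7.19 in clock-negative cells. In the IFE it had 8.43, 8.61 and 8.63 in wild type and 7.18, 7.23 and 7.55 in KO. The groups did not overlap in either set, with 1.29 between the nearest bulge arrays and 0.88 between the nearest IFE arrays. The same held for 2.52% of the 13100 genes tested in both sets. The difference was 1.48 ± 0.09 (SE, n = 3 per group) in the bulge, 2.79-fold, and −1.24 ± 0.13 in the KO, where wild type was 2.36-fold higher. By size it was rank 19 among rises in the bulge and rank 23 among falls in the KO, of 13956 genes each.

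Fam171b read 8.22, 8.35 and 8.23 in clock-positive cells against 6.90, 6.48 and 6.84 in clock-negative cells. Wild-type IFE arrays gave 7.50, 7.25 and 7.48 and KO arrays 6.10, 6.32 and 6.56. Again neither pair of groups overlapped, as for 2.52% of genes tested in both sets. Its bulge difference of 1.53 ± 0.10, 2.88-fold, was the largest of the 5 genes and rank 15 among rises. In the KO the difference was −1.08 ± 0.14, a wild-type level 2.12-fold higher.

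Sncg was about 1 unit apart in both tissues. Its values were 9.23, 9.24 and 9.16 in clock-positive cells and 8.16, 8.26 and 8.24 in clock-negative cells. Wild-type arrays read 9.92, 10.02 and 10.04, and KO arrays 8.89, 8.74 and 9.17. The differences were 0.99 ± 0.06 in the bulge, 1.99-fold, and −1.06 ± 0.13 in the KO, where wild type was 2.08-fold higher. The nearest arrays of unlike groups lay 0.90 apart in the bulge and 0.75 apart in the IFE.

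Homer2 had small differences in the bulge and large ones in the epidermis. The probe set used for the gene read 8.92, 8.99 and 9.09 in clock-positive cells and 8.76, 8.75 and 8.80 in clock-negative cells, so that only 0.12 parted the nearest arrays. In the IFE the same probe set read 8.56, 8.66 and 8.92 in wild type and 7.39, 7.72 and 7.59 in KO, with a gap of 0.84. The bulge difference was 0.23 ± 0.07, 1.17-fold, and it turned to −0.03 after quantile normalization and after cyclic loess. In the KO the difference was −1.15 ± 0.14, a wild-type level 2.21-fold higher, and it lay between −1.11 and −1.10 under 3 other scalings (those named and median centring). The second Homer2 probe set read 6.87, 6.79 and 6.71 against 6.38, 6.12 and 6.08 in the bulge, a difference of 0.60. It read 6.90, 6.53 and 6.55 in wild type against 5.45, 5.42 and 5.34 in KO, a difference of −1.25. The probe sets therefore gave like differences in the epidermis and differed in size in the bulge. The second one was dim in the epidermis, where its mean lay at percentile 16.9 of all probe sets (41.9 in the bulge). It was not run under the other scalings.

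Trpm3 read 7.56, 7.54 and 7.45 in clock-positive cells and 7.25, 7.30 and 7.10 in clock-negative cells. Wild-type IFE arrays gave 8.84, 8.58 and 8.57, and KO arrays 7.58, 7.52 and 7.45. The groups stood 0.15 apart in the bulge and 0.99 apart in the IFE. The bulge difference was 0.30 ± 0.07, 1.23-fold and rank 3662 among rises. The KO difference was −1.15 ± 0.11, with wild type 2.22-fold higher.

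The falls in the KO epidermis thus lay close together, from −1.24 to −1.06 on the log2 scale, while the rises in the bulge ran from 0.23 (Homer2) to 1.53 (Fam171b). For Homer2 the KO fall was 5.02 times the bulge rise and for Trpm3 3.83 times, against 0.84 for Lrrn3, 0.71 for Fam171b and 1.07 for Sncg. The Homer2 values are those of the probe set used for the gene, whose bulge change was −0.03 after quantile normalization and cyclic loess. The second Homer2 probe set had 0.60 in the bulge and −1.25 in the KO, so the Homer2 ratio is not stable. All genes tested had a median change of 0.15 in the bulge, so that relative to it the rises were 1.33 for Lrrn3, 1.38 for Fam171b, 0.84 for Sncg, 0.08 for Homer2 and 0.15 for Trpm3. The ratios set values from different tissues, ages and pool sizes side by side and were not tested. The genes were also chosen on these same values. At a limma adjusted p under 0.05, 0.115% of all genes were lower in the KO and 45.2% higher in clock-positive cells. The ranges and ratios therefore depend on the choice. In bulk samples such as these, fewer cells that express a gene and less RNA per cell cannot be told apart.

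**Figure D2:**
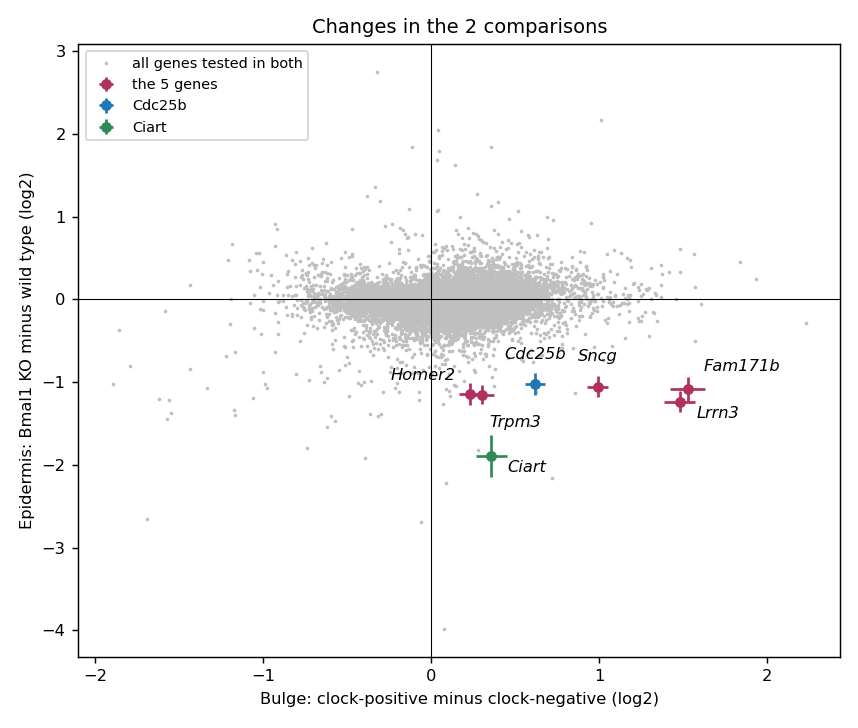
Log2 change in the bulge (x axis, clock-positive minus clock-negative) against log2 change in the epidermis (y axis, Bmal1 KO minus wild type), 1 grey dot for each of 13100 genes tested in both. Coloured points with SE bars are the 7 genes past the threshold in both. Lrrn3 and Fam171b lie far right at 1.48 and 1.53, and Homer2 and Trpm3 lie near the vertical axis at 0.23 and 0.30.

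How much each comparison selects differed greatly. A gene was called at a limma adjusted p under 0.05. By that rule 45.2% of genes tested were higher and 18.3% lower in clock-positive cells, and 0.115% were lower (16 of 13956) and 0.0788% higher (11) in the KO. After quantile normalization the calls were 2639 higher and 2723 lower in clock-positive cells, and 44 lower and 47 higher in the KO. All 3 clock-positive arrays lay above all 3 clock-negative ones for 50.1% of genes, and all 3 wild-type arrays above all 3 KO ones for 8.56%, and 2.52% of the 13100 genes tested in both sets met both conditions. Genes higher in clock-positive cells and lower in the KO by the call rule were 7, or 0.0534%. The 5 genes met these conditions by choice, so nothing is read from their count. Of the 15 genes lower in the KO and tested in both, 7 were higher in clock-positive cells (46.7%), near the 46.8% of all genes tested in both. Of the 9 genes higher in the KO, 3 were (33.3%). As a share of the 6131 genes higher in clock-positive cells and tested in both, these 7 are 0.114%. Besides the 5 genes they were Ciart, a repressor of the clock activators, and Cdc25b.

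Cdc25b, a phosphatase that starts mitosis, also met the description of a gene outside the clock higher in both settings, although it is not among the 5. It was higher by 0.62 ± 0.06 in clock-positive cells and at −1.03 ± 0.13 in the KO. At the edge of the KO threshold, Fam171b and Cdc25b were the last genes inside it outside the clock list (adjusted p = 0.0386 for each). Outside the threshold, the nearest genes not in the clock list that were lower in the KO and called higher in clock-positive cells were Slc6a6, a taurine transporter, at −0.68 ± 0.10 (adjusted p = 0.0604) and Col12a1, a collagen, at −0.74 ± 0.12 (adjusted p = 0.0693). Ankrd12, Tspan8 and Naaladl2 followed at −0.86, −1.13 and −2.16, with adjusted p of 0.0729, 0.0966 and 0.130.

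How many of the 5 genes lay past the KO threshold changed when 1 array was left out, while their changes kept their direction. The calls over all genes moved too: 16 genes were lower in the KO with all arrays. Without wild-type array 1 they were 71, and without wild-type array 2 or KO array 2 they were 3. With 1 IFE array left out, the changes of the 5 genes stayed between −1.35 and −0.96. Without wild-type array 1, 4 of them were past the threshold. Without wild-type array 2 or KO array 2, 0 were. Without wild-type array 3 or KO array 3, 2 were, and without KO array 1, only Trpm3 was. Fam171b fell below the filter on dim genes when any 1 wild-type array was left out and has no value there. In the bulge all 5 remained past the threshold without any 1 array, apart from Homer2 without clock-positive array 3 (0.18, adjusted p = 0.0651). The 5 genes were chosen on these same arrays, so these counts describe the call rule and test nothing.

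**Figure D3:**
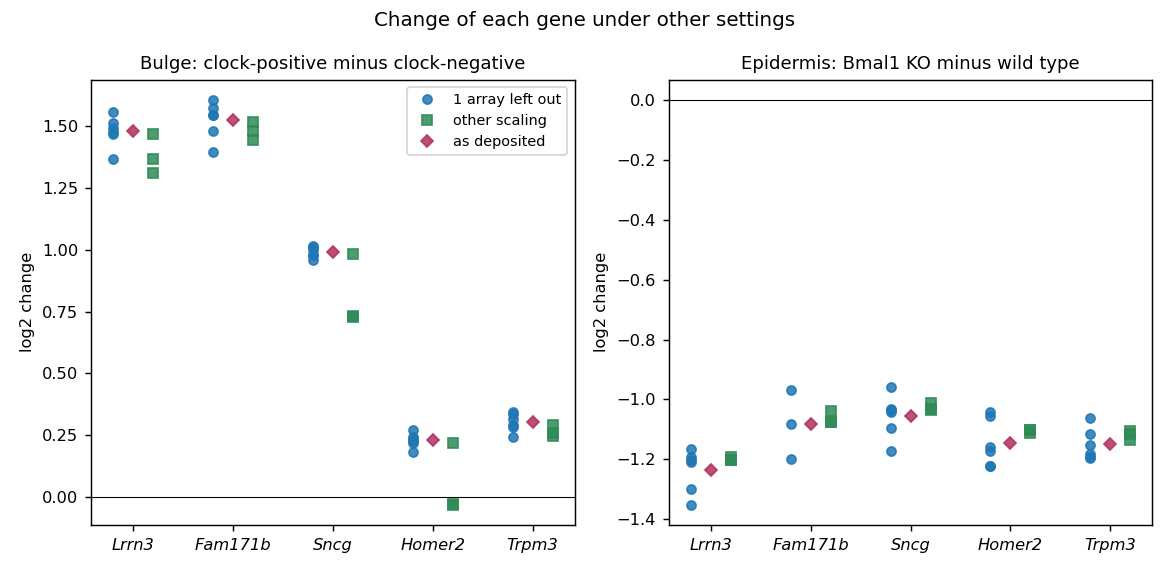
Log2 change (y axis) of each of the 5 genes (x axis) in the bulge, left, and in the KO epidermis, right. Diamonds are the values as deposited, circles the values with 1 array left out and squares those after median centring, quantile normalization or cyclic loess. Homer2 in the bulge crosses 0 after quantile normalization and cyclic loess, and the epidermis values all stay below −0.9.

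The families of the 5 genes, which the choice did not use, can be tested. Of the 11 relatives in the LRRN, FAM171, synuclein, Homer and TRPM families that passed the filter on dim genes in the IFE, 0 were called in the KO by limma. Over all genes 0.193% were called in either direction there, so 0 calls among 11 genes says little about the families. At an unadjusted p under 0.05, 1111 of 13956 genes passed, where a share of 0.05 would pass with no difference between the groups. In the bulge 4 of 9 relatives tested were called, 2 in each direction, against 63.5% of all genes. After quantile normalization 3 were, 1 higher and 2 lower.

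Among the LRRN genes, Lrrn2 fell by 0.23 ± 0.08 in clock-positive cells (limma adjusted p = 0.0341, or 0.0578 with the spread from all 12 arrays) and was at −0.00 ± 0.09 in the KO. Lrrn1 was below the filter in the bulge and at 0.34 ± 0.14 in the KO (adjusted p = 0.594), and Lrrn4 was below the filter in both sets. Fam171a1 and Fam171a2 were at −0.15 ± 0.08 and 0.14 ± 0.06 in the bulge and both at 0.06 ± 0.10 in the KO, none past the threshold. Sncb, beta-synuclein, fell by 0.43 ± 0.09 in clock-positive cells (adjusted p = 0.00215), opposite to Sncg, and was at −0.01 ± 0.13 in the KO.

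Homer1 and Homer3 were at 0.11 ± 0.06 and 0.11 ± 0.08 in the bulge and at −0.12 ± 0.13 and −0.11 ± 0.09 in the KO, none past the threshold. Among the other TRPM channels Trpm4, a channel opened by calcium, was higher by 0.42 ± 0.07 in clock-positive cells (adjusted p = 5.45e-04, or 0.0577 with the spread from all 12 arrays), and Trpm7, a channel fused to a kinase, by 0.32 ± 0.10 (adjusted p = 0.0139). The Trpm7 call was lost after quantile normalization and cyclic loess, at 0.07 in each. Trpm2 was at −0.21 ± 0.09 (adjusted p = 0.0684). In the KO Trpm2, Trpm4, Trpm6 and Trpm7 lay from −0.28 to −0.04, none past the threshold. Trpm1, Trpm5 and Trpm8 were below the filter in both sets.

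**Figure D4:**
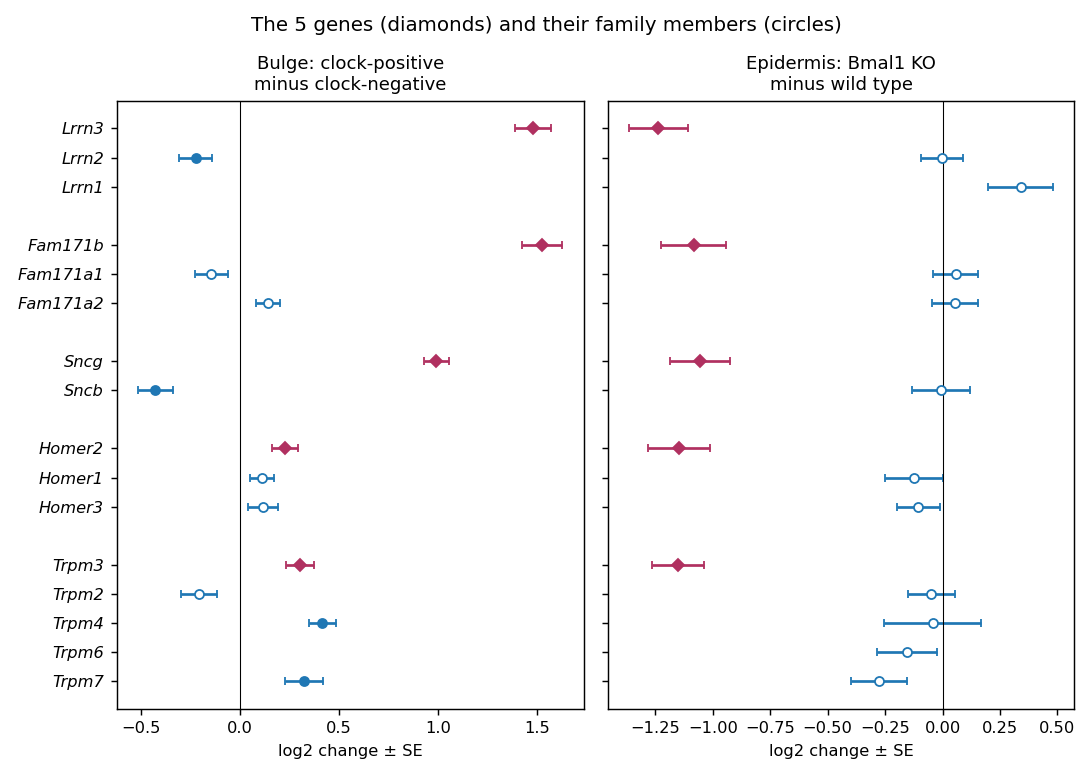
Log2 change ± SE (x axis) of the 5 genes (diamonds) and of their family members (circles, filled where past an adjusted p of 0.05), by gene (y axis), in the bulge, left, and in the KO epidermis, right. Relatives below the filter on dim genes have no point. In the epidermis panel the 5 diamonds lie between −1.24 and −1.06 and all circles between −0.28 and 0.34.

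Wider lists were drawn from what these proteins are known to do. Over all genes tested, 45.2% were higher and 18.3% lower in clock-positive cells, for this list and those that follow. Of 15 surface proteins with leucine-rich repeats other than Lrrn3 tested in the bulge, 3 rose and 8 fell (median change −0.23, against 0.15 for all genes). With the spread from all 12 arrays 3 rose and 4 fell. Lower calls over all genes went from 2555 to 740 with the dimmest 50% left out. The part of dim values in these falls was not tested. Flrt2 and Flrt3, which guide cell contacts, rose by 0.94 ± 0.08 and 0.43 ± 0.06, and Slitrk4 fell by 0.35 ± 0.08, though its call was lost after quantile normalization (adjusted p = 0.117), where 3 of the 15 rose and 6 fell. In the KO 0 of 15 were called (median −0.00, against −0.01 for all genes), with Slitrk6 at −0.50, Lrrtm2 at −0.54 and Lrrc4 at −0.26. Over all genes 0.193% were called in the KO, so 0 calls in this list and those that follow say little.

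Of 12 Homer binding partners tested in the bulge, 5 rose and 5 fell (median 0.08), and after quantile normalization 3 and 3 (median −0.06). Nfatc1, a calcium-driven transcription factor that also marks the bulge, rose by 0.76 ± 0.07 and the scaffold Shank1 by 0.47 ± 0.08, while its relative Shank2 fell by 0.59 ± 0.10. In the KO 0 of 14 were called (median −0.07). The IP3 receptor genes Itpr2 and Itpr3 were there at −0.23 and −0.33, and the channel gene Trpc4 at 0.51.

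Of 14 genes of store-operated calcium entry and calcineurin, 7 rose and 0 fell in clock-positive cells (median 0.20), but after quantile normalization 4 rose and 2 fell (median 0.01). The calcium pump gene Atp2a3 rose by 0.67 ± 0.07, the store sensor Stim1 by 0.39 ± 0.06 and the calcineurin subunit Ppp3r1 by 0.41 ± 0.07. The share of 7 in 14 is close to the 45.2% of all genes that were higher. In the KO 0 of 14 were called, with Atp2a3 at −0.46 ± 0.15 (adjusted p = 0.413), Ppp3cc at −0.38 and Atp2b1 at −0.22. Of 7 other TRP channels tested in the bulge, 1 rose and 2 fell. Trpv4, an osmotic and warmth sensor, rose by 1.05 ± 0.07, and Trpv2 and Trpv5 fell by 0.40 ± 0.07 and 0.29 ± 0.06, though neither was called after quantile normalization (adjusted p = 0.0655 and 0.104), where 2 of the 7 rose (Trpv4 and Mcoln3) and 1 fell (Trpv6). In the KO 0 of 7 were called, with Trpv4 at −0.23 and Trpv3 at −0.37. The clock list itself had 9 of 19 genes higher in clock-positive cells and 0 lower, and 4 higher and 6 lower after quantile normalization. In the KO 2 of 18 rose (Cry1 and Nfil3) and 4 fell (Per3, Nr1d1, Nr1d2 and Ciart). Bhlhe41 was below the filter on dim genes in the IFE and so was not counted there. Its mean was 7.66 in wild type and 4.93 in KO, and it rose by 1.11 ± 0.06 in clock-positive cells.

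The neighbours of the 5 genes in the RefSeq gene table were read next. Lrrn3 lies within Immp2l, which was not analysed here. Dnajb9, the nearest protein-coding gene on one side of Lrrn3, rose by 0.78 ± 0.09 in clock-positive cells and was at −0.13 ± 0.14 in the KO, and Dock4 on the other side was below the filter. Itgav, an integrin chain next to Fam171b, rose by 0.44 ± 0.07 in the bulge and was at 0.05 ± 0.11 in the KO, and Zswim2 was below the filter. Mmrn2, a protein of endothelium next to Sncg, rose by 0.43 ± 0.06 in the bulge and was below the filter in the IFE, while Fam25c on its other side was at 0.09 and −0.12. Whamm, beside Homer2, was at 0.03 and −0.09, and Ramac was not analysed here. Cemip2, beside Trpm3, rose by 0.64 ± 0.07 in the bulge and was at 0.00 ± 0.15 in the KO. Klf9, a transcription factor gene on its other side, was higher by 0.24 ± 0.07 in the bulge, though at −0.02 and −0.03 after quantile normalization and cyclic loess, and at −0.31 ± 0.18 in the KO (adjusted p = 0.809). Of the 6 neighbours tested in the KO, 0 were called, against 0.193% of all genes, so this count says little.

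The microRNA gene inside Trpm3 had another pattern than its host. It is shown by its mature 5′ arm from RefSeq (GRCm38.p6, chr19:22750610-22750631, plus strand), with the seed, bases 2 to 8, in capitals.
mmu-miR-204-5p: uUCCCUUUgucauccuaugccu
A probe set carries the symbol Mir204, with no arm stated, and it was named outside the rule for genes, for its place within Trpm3. It read 5.57, 5.72 and 5.58 in clock-positive cells and 6.38, 6.42 and 6.15 in clock-negative cells, opposite to Trpm3. In the IFE it read 6.86, 6.54 and 6.39 in wild type and 6.11, 6.76 and 6.89 in KO, where the groups overlapped. It lay below the filter on dim genes in both sets. With no filter the bulge difference was −0.69 ± 0.09 (limma adjusted p = 1.87e-04) and the KO difference −0.01 ± 0.22 (adjusted p = 0.998). With no filter 6285 of 19937 genes were called higher and 5564 lower in clock-positive cells, against 6311 and 2555 of 13956 with it. Dropping the filter thus added mainly lower calls, so a fall at this intensity is not particular to Mir204.

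After each set's mean was subtracted, Lrrn3, Fam171b and Sncg had Pearson r of 0.95 to 0.99 with each other over the 12 arrays. Homer2 and Trpm3 had r = 0.92 with each other, and 0.70 to 0.83 with the first 3. These values describe how alike the patterns are, and they rest mostly on the group differences by which the genes were chosen. Among 13100 genes Lrrn3 was nearest to Fam171b and Sncg, and outside the 5 genes to Slc6a6 (r = 0.97), Col12a1 (r = 0.97) and Iffo2 (r = 0.95). Sncg was nearest outside the 5 to the same 3 genes. Outside the 5, Fam171b was nearest to Vwf (r = 0.95), which marks endothelium, Palmd and Col12a1 (r = 0.94 for each). Homer2 was nearest there to Klf12 (r = 0.96), Nr1d1 (r = 0.95) and Nr1d2 (r = 0.94), and Trpm3 to Nr1d2 (r = 0.96), Kctd4 (r = 0.96) and Nr1d1 (r = 0.95). Nr1d1 and Nr1d2 were at 0.08 ± 0.06 and 0.09 ± 0.07 in the bulge and fell by 3.98 and 2.22 in the KO.

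Within groups the 5 genes did not all move as one. KO array 3 was above its group's mean by 0.23 for Lrrn3, 0.23 for Fam171b and 0.24 for Sncg, and by 0.03 for Homer2, while Trpm3 was below it by a deviation of −0.07. Clock-negative array 2 stood low for Lrrn3 (−0.23) and Fam171b (−0.26) but not for Sncg (0.04). Wild-type array 1 was low for Lrrn3, Sncg and Homer2 (−0.12, −0.08 and −0.15) and high for Trpm3 (0.18) and Fam171b (0.09).

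Markers of other cell types differed between the groups and are given beside these results. For the bulge counts here and below, 45.2% of all genes tested were higher and 18.3% lower in clock-positive cells. In clock-positive cells 0 of 8 T cell markers rose and 7 fell, and the mean over 9 markers ran from 7.01 to 7.05 there and from 7.84 to 7.93 in clock-negative cells, opposite to the 5 genes. In the IFE 1 of 6 was called, Thy1, which was higher in the KO, and Cd3g was at −2.66. Cd3g was called lower under each of the 3 other scalings, and 3 T cell and 2 myeloid markers were lower with the spread from all 12 arrays. The mean was 7.69, 8.52 and 8.71 on wild-type arrays 1 to 3 and from 7.51 to 7.54 on KO arrays. Of 8 Langerhans and other myeloid markers tested in the bulge, 1 rose and 7 fell in clock-positive cells (median change −0.60). Their IFE means showed a spread like that of the T cell markers, with 7.33, 8.22 and 8.57 in wild type and 7.15 to 7.27 in KO. The wild-type array nearest to the KO in both lists was array 1. The part of these cells in the KO result was not tested.

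Endothelial markers were higher in clock-positive cells (10 of 12 rose, 0 fell), with list means from 8.14 to 8.15 against 7.79 to 7.85. After quantile normalization 7 of the 12 rose and 0 fell. In the IFE 0 of 5 were called and the means overlapped, at 6.66 to 6.71 in wild type and 6.54 to 6.80 in KO. Their part in the bulge result was not tested. Since 4 of the 5 genes are known from neurons, markers of nerve were read too. Of 7 neuron markers tested in the bulge, 1 rose and 4 fell, with list means of 6.01 to 6.04 in clock-positive and 6.10 to 6.30 in clock-negative cells, but after quantile normalization 3 rose and 0 fell. Of 9 Schwann cell markers 1 rose and 2 fell, and of 4 Merkel cell markers 0 rose and 2 fell. After quantile normalization 1 Schwann cell marker rose and 4 fell, and the Merkel cell counts stayed at 0 and 2. In the IFE 0 of 5 neuron, 0 of 8 Schwann cell and 0 of 4 Merkel cell markers were called. Over all genes 0.193% were called there, so 0 calls in marker lists of this size say little about the cells. The neuron means overlapped there, at 6.56 to 6.59 in wild type and 6.54 to 6.62 in KO, and so did the Schwann cell means, at 7.84 to 8.05 and 7.90 to 8.01. Of 7 melanocyte markers in the bulge 1 rose and 6 fell, and of 6 dermal fibroblast markers 2 rose and 3 fell, while in the IFE 0 of 6 and 0 of 5 were called. After quantile normalization 1 melanocyte marker rose and 3 fell in the bulge, and 1 fibroblast marker rose and 1 fell.

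**Figure D5:**
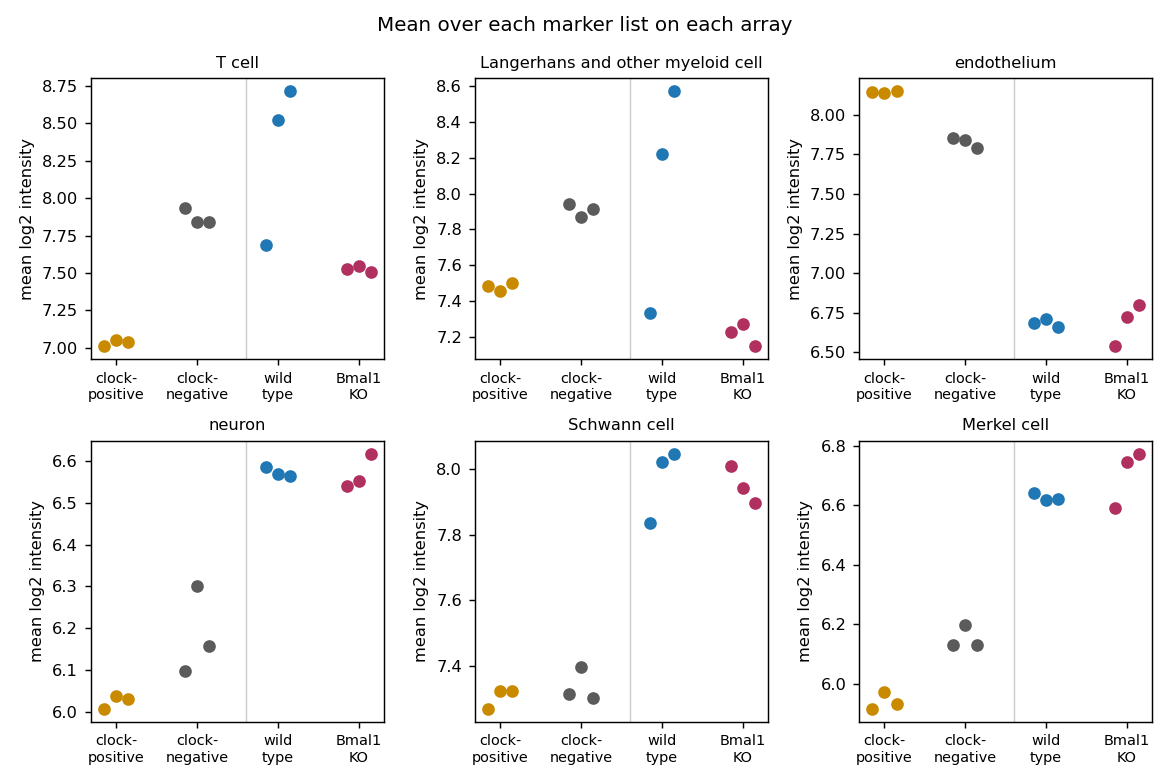
Mean log2 intensity (y axis) over 6 lists of marker genes on each array, by group (x axis), 1 dot per array. Within the epidermis set, T cell and myeloid means are low on all KO arrays and near them on wild-type array 1 (leftmost dot), and neuron and Schwann cell means overlap between wild type and KO.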

How the data were processed

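The 12 arrays measured total RNA of sorted mouse skin cells, amplified with a whole transcriptome kit per the labels' protocols. The authors deposited log2 intensities. The submitters' processing notes name RMA, with no version. Of 35512 probe sets, 21789 carry 1 symbol (19938 genes), and of several for a gene the one filled on all 12 arrays with the highest mean was used. Entrez identifiers of 21698 matched RefSeq GRCm38.p6, which changed 0 symbols. In each set of 6 arrays the 30% of genes with the lowest mean were left out as dim, which left 13956. The tests used limma 3.58.1 (lmFit, then eBayes with no trend) under R 4.3.3, two-sided, with Benjamini-Hochberg adjustment over all genes and a threshold of 0.05; the fit was checked on simulated data. In the text ± gives the fit's standard error, except where SD is written.

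The genes named were the 5 genes, their families, up to 3 genes with the smallest p per list, the nearest protein-coding neighbours, the 3 genes most alike in pattern to each, and the genes around the KO threshold. The members and lists were chosen with earlier results of these data known. The labels do not say that samples came from separate sorts, so p-values measure the spread between these samples. No 2 columns were identical. Alternatives were 3 scalings, other filters on dim genes, all 12 arrays in 1 fit, eBayes with trend, a replicate block and leaving out each array.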

Additional observations from a re-analysis of the deposited data

How the results depend on the processing

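The changes of the 5 genes kept their direction under every setting run, apart from Homer2 in the bulge, which was at −0.0283 after quantile normalization and −0.0322 after cyclic loess (adjusted p = 0.748 and 0.714). Its second probe set gave 0.596 as deposited and was not run under the other scalings. Sncg in the bulge was at 0.73 under quantile normalization and cyclic loess, and Lrrn3 at 1.31 under cyclic loess. Left-out arrays gave 1.37 to 1.56 for Lrrn3, 1.39 to 1.61 for Fam171b, 0.96 to 1.02 for Sncg, 0.18 to 0.27 for Homer2 and 0.24 to 0.34 for Trpm3 in the bulge.

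Counts moved more. Genes called higher in clock-positive cells numbered 6311 as deposited, 2639 after quantile normalization, 2862 after cyclic loess and 3494 with the spread from all 12 arrays (5147 to 6981 without 1 array). Those called lower numbered 2555, and 5564 with no filter on dim genes or 740 with 50% left out. The share of higher among called genes was 71.2% as deposited, 49.2% after quantile normalization and 50.4% after cyclic loess. The median change of all genes tested in the bulge moved from 0.15 to −0.01 after quantile normalization and −0.00 after cyclic loess. In the KO, 16 genes were lower and 11 higher; median centring gave 39 and 43, quantile normalization 44 and 47, cyclic loess 42 and 45, no filter 11 and 5, 50% left out 29 and 18, all 12 arrays 257 and 150, and trend 36 and 21. Without 1 array they were 3 to 71 and 3 to 27. Genes called in both, 7 as deposited, were 13, 11 and 11 under the 3 scalings, 27 with all 12 arrays, 12 with trend, and 0 to 18 without 1 array. Of the 5 genes, 5 were among them after median centring and with trend, 4 with all 12 arrays (Homer2 lost), 4 with no filter or with 50% left out (Fam171b lost), and 3 after quantile normalization or cyclic loess (Sncg and Homer2 lost). The cause was not tested.

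With the replicate number as a block, 3 genes were called lower and 0 higher in the KO. Called in both were 0 genes, and none of the 5 were called in the KO. Of the 13956 genes tested there, 715 had an unadjusted p under 0.05. That is close to the share of 0.05 that would pass with no difference between the groups. In the bulge the block gave 6564 genes higher and 2787 lower. Same-numbered arrays deviated together with r of 0.24, 0.26 and −0.06 in the bulge and −0.44, 0.04 and −0.53 in the IFE. Differently numbered arrays had r from −0.325 to 0.126 in the bulge and from −0.312 to 0.538 in the IFE. Same-numbered arrays were thus not the more alike in the IFE, and whether the numbers pair the bulge samples is not settled. Other named genes that turned sign in the bulge, past the threshold in at least one setting, were Atp2b1 (−0.183 after quantile normalization and −0.19 after cyclic loess), Klf9 (−0.0164 and −0.0251), Whamm (−0.197 and −0.173), Nr1d2 (−0.168 and −0.174) and Arntl (−0.089 and −0.0914). The number of arrays, 3 per group, limits what these comparisons can show.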
